A study of Arabidopsis thaliana with 13 samples.

Results

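ORA47, STZ, AT3G02840, AT4G27654 and AT2G38800 are 5 Arabidopsis thaliana genes of the rapid stress response, out of 13286 genes that had a probe set annotated to them alone. They were chosen by their measured signals, which were high in leaf 11 of plants carrying a T-DNA in ANAC059 or after ANAC059 was switched on in seedlings. Each had 1 such probe set, and all 5 were measured on every array. The values behind that choice, those of the ANAC059 insertion line and of the ANAC059 induction, are therefore given below as a description, without a test.

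Rapid stress genes are transcribed within minutes of wounding, touch, cold, salt or a microbial elicitor, without need of new protein, and many fall back soon after. ORA47 encodes an AP2/ERF transcription factor known to activate genes of jasmonate synthesis. STZ, also called ZAT10, encodes a C2H2 zinc finger protein that acts as a transcriptional repressor in salt, cold, drought and light stress. The other 3 genes are named by locus here because the gene table gives no other name for them. ANAC059 and ANAC092 are closely related NAC transcription factors, and both are known as promoters of leaf ageing.

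The induction arrays held shoots of 3-week-old seedlings in the Col-0 background, all given 10 µM estradiol for 5 h. ANAC092 induced seedlings (3 arrays) carried an estradiol-inducible ANAC092 overexpression construct and were normalized with 3 arrays of the empty inducible vector. ANAC059 induced seedlings (2 arrays) carried the ANAC059 construct and were normalized with 2 empty vector arrays. The leaf arrays held leaf 11 of soil-grown plants aged 38 days from the ANAC059 T-DNA line, the ANAC092 T-DNA line and Col-0 wild type, with 1 array each, so these differences have no replicate check. The alleles, the number of lines and any pooling of plants are not given in the sources used here. The titles call the induction arrays biological replicates, but nothing names separate plants or cultures, so p-values measure only the spread between these arrays. Neither ANAC059 nor ANAC092 had a named probe set, and the induced and disrupted genes were not checked.

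Values are RMA log2 signals, on which a difference of 1 is a doubling, and levels are compared only within one of the 3 sets of arrays normalized together. Array medians ran between 7.55 and 7.71 for the ANAC092 set, between 7.59 and 7.62 for the ANAC059 set, and between 5.73 and 5.83 for leaves. Replicates 1 and 2 of the empty vector appear to be one pair of hybridisations normalized in both induction sets (the difference between them had a correlation of 0.883 over probe sets), so the inductions are taken to share control arrays. Empty vector replicate 3 and ANAC092 induced replicate 2 stood apart from the other arrays of their groups (SD of differences 0.351 and 0.386, and 0.343 and 0.364, against 0.178 and 0.129 within the remaining pairs). ANAC092 induced replicates 1 and 3 differed less (SD 0.129) than same-numbered empty vector arrays did between the 2 sets (0.142). How independent those induced arrays are is not known, and 1 alternative fit averaged them. In the leaf set, 22.1% of probe sets had the identical value in the ANAC059 line and wild type, and 14.7% had it on all 3 arrays (median level 4.60). None of the 5 genes had the same value on any pair of leaf arrays. For pairs with the ANAC059 line, the choice of genes by high signals there makes this likely. The mesophyll markers measured, RCA, PRK and PORB, lay between 9.87 and 13.58 on the leaf arrays, and the root beta-glucosidase gene PYK10 between 3.98 and 4.23. In the seedling shoots PYK10 lay between 11.29 and 11.88. No floral marker was measured.

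Leaf 11 of the ANAC059 line had the highest signal of the leaf set for all 5 genes, and the ANAC092 line lay between it and wild type each time. ORA47 had a log2 signal of 10.54 in the ANAC059 line and 9.36 in the ANAC092 line, against 7.54 in wild type. These are differences of 3.00 (8.00-fold) for the ANAC059 line and 1.82 (3.53-fold) for the ANAC092 line. Of the 5 genes, ORA47 had the highest difference in the ANAC092 line, ranking 30 of 22746 probe sets there and 11 in the ANAC059 line.

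STZ was already bright in wild type leaf and differed least. Its signal was 11.36 in the ANAC059 line and 10.54 in the ANAC092 line, against 10.09 in wild type. The differences to wild type were 1.27 (2.41-fold) and 0.45 (1.37-fold), in the same order, and ranked 596 and 1158. The plot of the 5 genes by array shows this gene near the top of the scale throughout.

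AT3G02840 had the highest difference of the 5 in the ANAC059 line. It stood at 8.94 in the ANAC059 line and 6.58 in the ANAC092 line, against 5.64 in wild type. The ANAC059 line exceeded wild type by 3.30 (9.88-fold, rank 5 of 22746) and the ANAC092 line did so by 0.94 (1.91-fold). Its wild type signal lay just below the median of that array.

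AT4G27654 stood at 9.65 in the ANAC059 line and 7.90 in the ANAC092 line, against 6.70 in wild type. These are differences of 2.95 (7.72-fold) and 1.20 (2.30-fold). AT2G38800 stood at 7.84 in the ANAC059 line and 5.45 in the ANAC092 line, against 4.74 in wild type. It was the dimmest of the leaf values relative to its array, 0.99 below the median in wild type, and differed by 3.10 (8.57-fold) and 0.72 (1.64-fold). No detection calls were used, so how far the low wild type values of AT2G38800 and AT3G02840 stand above background is not known. On a scale that adds 16 to the linear signal, which shrinks differences of dim probe sets, AT2G38800 was higher by 2.52 in the ANAC059 line and 0.49 in the ANAC092 line.

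**Figure D1:**
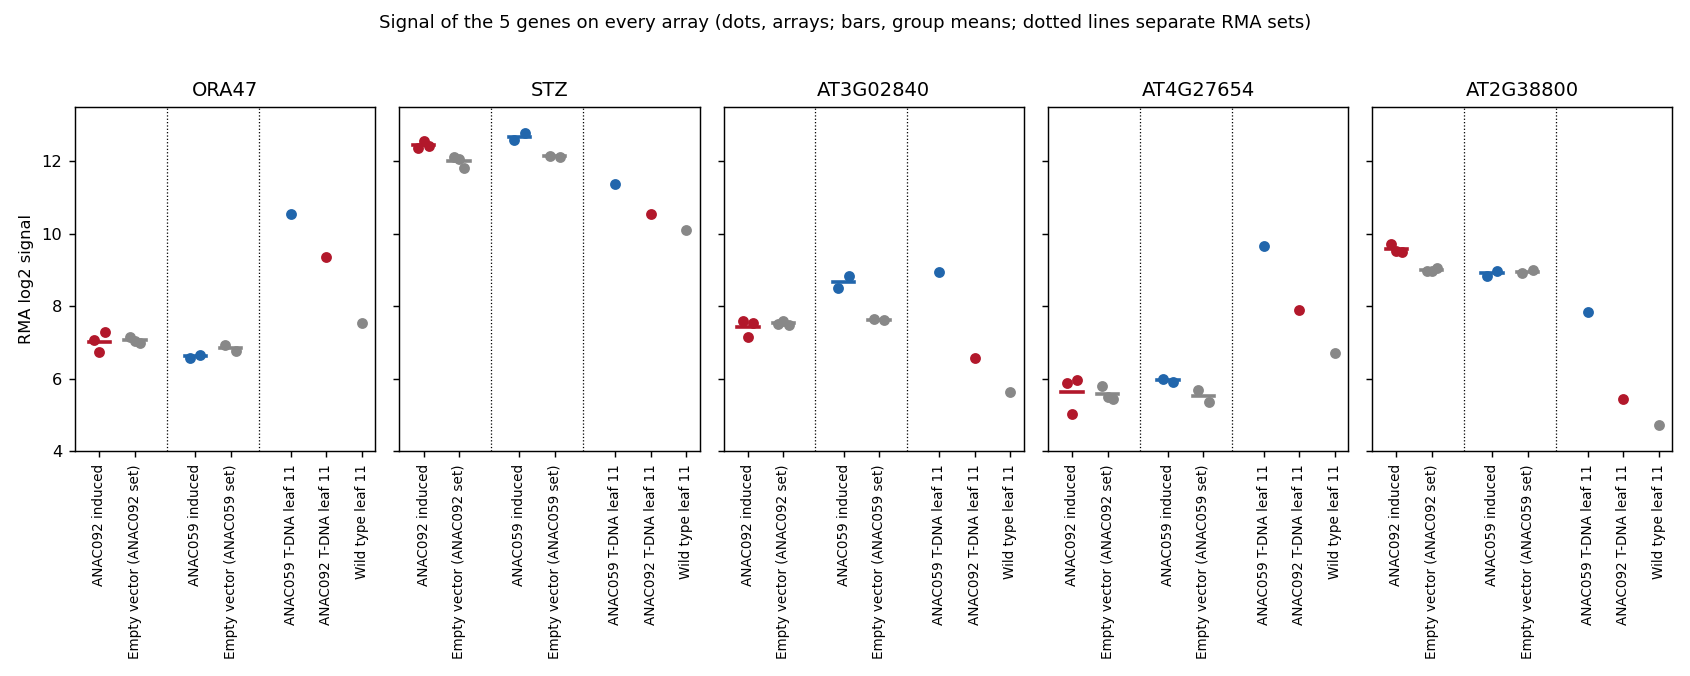
RMA log2 signal (vertical axis) of ORA47, STZ, AT3G02840, AT4G27654 and AT2G38800 on each of the 13 profiles, with dots for arrays, bars for group means and dotted lines between sets normalized apart. In leaf 11 every gene is highest in the ANAC059 line and lowest in wild type, while induced and empty vector seedlings differ most for AT3G02840 in the ANAC059 set (1.04), followed by AT2G38800 in the ANAC092 set (0.57).

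Across all probe sets, 4.65% were higher by at least 1 in the ANAC059 line than in wild type, and 0.611% were lower by as much. All 5 genes were among the higher ones, as their choice implies. In the ANAC092 line 0.98% were higher by at least 1, among them 2 of the 5 genes, ORA47 and AT4G27654, and 0.822% were lower. The median of the 5 genes was 3.00 in the ANAC059 line and 0.94 in the ANAC092 line, against a median of 0 over all probe sets in both. Both comparisons use the same wild type array. Set directly against the ANAC092 line, the ANAC059 line was higher by 2.38 for AT2G38800, 2.37 for AT3G02840, 1.74 for AT4G27654, 1.18 for ORA47 and 0.82 for STZ. At least 1 was reached by 4 of the 5 genes in that comparison, and by 4.62% of all probe sets, while 0.791% were lower by as much. That comparison also uses the ANAC059 leaf array behind the choice of genes, so high differences are implied there too.

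**Figure D2:**
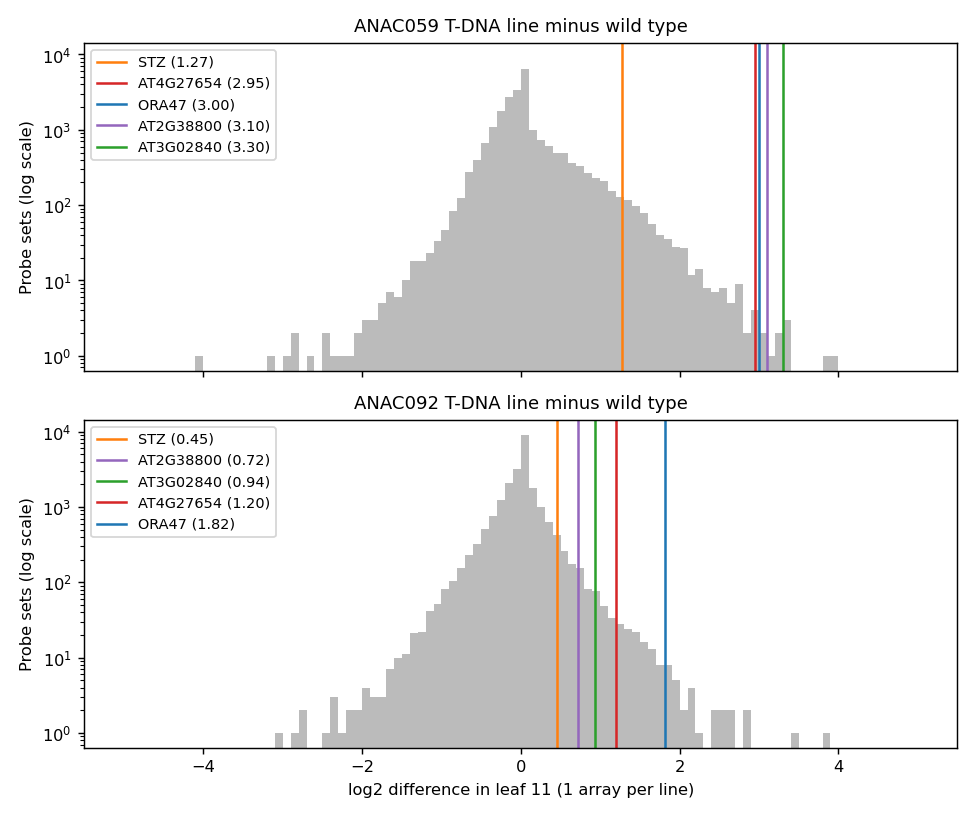
Number of probe sets (vertical axis, log scale) by log2 difference to wild type in leaf 11, for the ANAC059 T-DNA line above and the ANAC092 T-DNA line below, with coloured lines at the 5 genes. The upper distribution has a longer right side, with 1057 probe sets at 1 or more and 139 at -1 or less, against 223 and 187 in the lower one.

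Harvest state and RNA quality could be followed on the leaf arrays only in part. The 3' minus 5' signal of the actin control was 4.18 in the ANAC059 line and 3.60 in the ANAC092 line, against 4.18 in wild type. For the GAPDH control it was 1.94 and 1.93, against 1.97 in wild type. The clock gene GI stood at 8.47 in the ANAC059 line and 7.48 in the ANAC092 line, against 8.21 in wild type. Genes encoded in the chloroplast were higher by at least 1 in the ANAC059 line for 15 of 69 probe sets (median 0.31) and in the ANAC092 line for 5 of 69 (median 0.13). These are 21.7% and 7.25%, against 4.65% and 0.98% of all probe sets. The guard cell gene FMA stood at 6.29 and 6.14, against 5.98 in wild type. In whole leaves, a change in the share of a cell type and a change in RNA per cell cannot be told apart. The part of the organelle transcripts, the guard cells or the time of harvest in the leaf differences was not tested.

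The ANAC059 induction, the other contrast behind the choice of genes, gave smaller and unequal differences. AT3G02840 had 8.51 and 8.84 in ANAC059 induced seedlings, against 7.64 and 7.62 in empty vector seedlings. The difference was 1.04 ± 0.12 (limma SE, n = 2 per group), or 2.06-fold. STZ had 12.58 and 12.78 in induced seedlings, against 12.15 and 12.12 in empty vector seedlings, a difference of 0.54 ± 0.10. AT4G27654 had 6.00 and 5.91, against 5.69 and 5.37 in empty vector seedlings, a difference of 0.43 ± 0.12. This probe set was dim in all seedlings, with between 2.34% and 26.2% of probe sets below it on each array, and how far it stood above background there is not known.

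ORA47 and AT2G38800 did not share that direction. ORA47 had 6.58 and 6.66 in ANAC059 induced seedlings, against 6.93 and 6.76 in empty vector seedlings, a difference of -0.23 ± 0.10. AT2G38800 had 8.85 and 8.97, against 8.91 and 8.99 in empty vector seedlings (-0.04 ± 0.09), and its groups overlapped. Both induced arrays lay above both empty vector arrays for AT3G02840, STZ and AT4G27654, an ordering shown by 26.2% of all probe sets, and below them for ORA47, an ordering shown by 26.8%. In this fit 2.99% of probe sets were called, 1.65% higher and 1.34% lower.

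After ANAC092 induction, a contrast that the choice of genes did not use but that shares empty vector arrays with one it did, AT2G38800 was the 1 gene of the 5 that passed the test. It had 9.72, 9.53 and 9.50 in ANAC092 induced seedlings, against 8.98, 8.98 and 9.07 in empty vector seedlings. All induced arrays lay above all controls. The rise was 0.57 ± 0.10 (limma SE, n = 3 per group, adjusted p = 0.0346), or 1.49-fold, in a fit that called 2.23% of probe sets, 1.4% higher and 0.831% lower. The size held between 0.51 and 0.61 when single arrays were left out, but the limma adjusted p exceeded 0.05 in 5 of these 6 fits (0.0363 to 0.172), staying below it only without empty vector replicate 3. The call was also lost with induced replicates 1 and 3, the closest pair, averaged. Against empty vector replicate 3 alone, an array the ANAC059 set does not hold, the difference was 0.51 with a limma adjusted p of 0.159. That fit takes the spread of the induced arrays to hold for the single control.

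STZ had 12.37, 12.55 and 12.42 in ANAC092 induced seedlings, against 12.11, 12.07 and 11.81 in empty vector seedlings. Its groups did not overlap either, as for 7.98% of all probe sets in that direction and 12.4% in the other. The difference of 0.45 ± 0.12 had a 95% interval of 0.18 to 0.72 and missed the threshold over all probe sets (limma adjusted p = 0.132, range 0.0926 to 0.388 over the alternatives). Against empty vector replicate 3 alone it was 0.64 (limma adjusted p = 0.0968).

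The remaining genes showed no difference beyond the spread of the arrays. ORA47 averaged 7.03 ± 0.28 in ANAC092 induced and 7.07 ± 0.09 in empty vector seedlings (SD, n = 3 each), a difference of -0.04 with a 95% interval of -0.39 to 0.31 (limma adjusted p = 0.952). AT3G02840 averaged 7.44 ± 0.24 in ANAC092 induced and 7.53 ± 0.06 in empty vector seedlings, a difference of -0.09 with an interval of -0.41 to 0.22. AT4G27654 averaged 5.63 ± 0.51 in ANAC092 induced and 5.58 ± 0.20 in empty vector seedlings, a difference of 0.05 with an interval of -0.53 to 0.62. For each of these, ANAC092 induced replicate 2 was the lowest of the 6 arrays, at 6.73 for ORA47, 7.17 for AT3G02840 and 5.04 for AT4G27654. Without that array the differences were 0.11, 0.04 and 0.34, in the same order, and none passed.

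**Figure D3:**
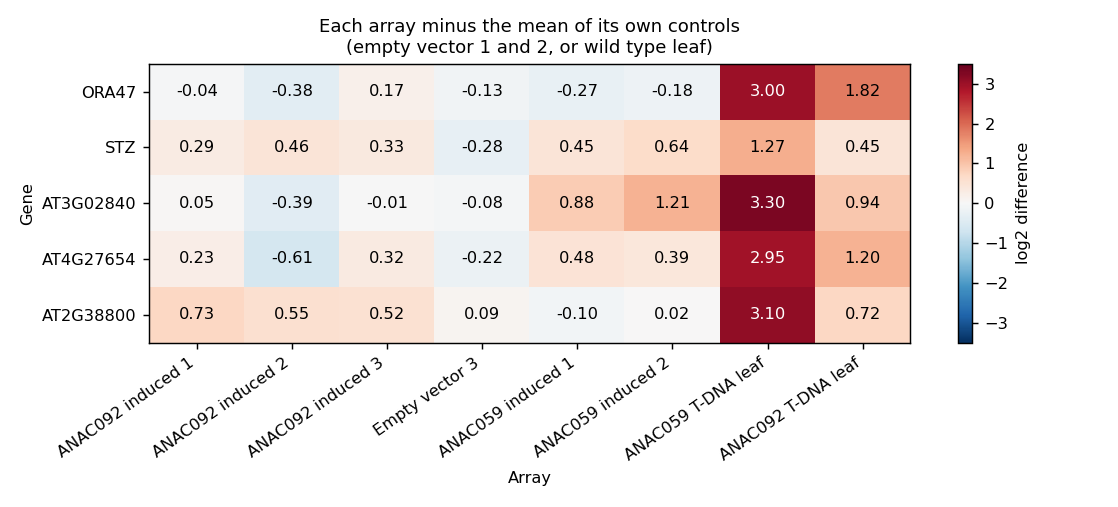
Log2 difference (colour and printed value) of each array from the mean of its own controls for the 5 genes, the controls being empty vector replicates 1 and 2 for seedlings and wild type for leaves. The ANAC059 T-DNA leaf column holds 1.27 to 3.30, the ANAC092 T-DNA leaf column 0.45 to 1.82, and the seedling columns stay between -0.61 and 1.21.

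Read by gene, the 5 patterns over these differences were unlike in the seedlings. STZ was higher in all 5 induced seedling arrays (0.29 to 0.64) and lower in empty vector replicate 3 (-0.28). AT2G38800 was higher in the 3 ANAC092 arrays (0.52 to 0.73) and near its controls in the ANAC059 arrays (-0.10 and 0.02). AT3G02840 was higher in the ANAC059 arrays (0.88 and 1.21) and at -0.39 to 0.05 in the ANAC092 arrays. Among the 5, AT3G02840 and AT4G27654 were the closest pair, with a root mean square difference of 0.39 over 8 differences, and ORA47 and STZ the farthest, at 0.93. These 8 include the ANAC059 leaf and ANAC059 induction differences behind the choice of genes, so closeness among the 5 is partly implied by that choice.

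The single-gene probe sets closest to each gene over the same 8 differences differed by gene. For STZ these were AT5G16200 (0.20), AT4G24380 (0.23) and AT2G27080 (0.24). For AT2G38800 they were PIA1 (0.25), a protein phosphatase gene induced in bacterial recognition, then AT4G16660 (0.34) and AT5G47070 (0.37). For AT3G02840 they were AT4G27654, AT4G29780 (0.48) and AT1G51110 (0.53), and for AT4G27654 they were AT3G02840, ORA47 (0.42) and the chloroplast ribosomal protein gene rps19 (0.43). For ORA47 the closest were the chloroplast genes ndhI (0.29) and ndhA (0.35), which encode subunits of the chloroplast NADH dehydrogenase-like complex, and KELP (0.40), a transcriptional coactivator gene. In leaf 11, ndhI was higher by 3.30 in the ANAC059 line and 1.99 in the ANAC092 line, and ndhA by 3.38 and 2.20. Of the 8 values, 2 come from single leaf arrays, and the part of the organelle transcripts in these likenesses was not tested.

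Chromosomal neighbours were compared next, taking the nearest 2 protein-coding genes on either side in the gene table, of which 12 of 20 had a single-gene probe set. AT4G27652 and AT4G27657, the loci on either side of AT4G27654, were high in the same leaf. AT4G27652 stood at 9.29 in the ANAC059 line and 8.36 in the ANAC092 line, against 7.41 in wild type. AT4G27657 stood at 8.85 in the ANAC059 line and 8.34 in the ANAC092 line, against 7.56 in wild type. Both rose after ANAC059 induction, by 0.67 ± 0.10 and 0.95 ± 0.15 (limma adjusted p = 0.0231 and 0.0273), but each call was lost in 3 and 2 of the 4 fits that left out an array. Whether the probes of these adjacent loci share sequence was not examined.

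AT2G38790, next to AT2G38800, was higher by 1.65 in the ANAC059 line and 0.59 in the ANAC092 line. AT1G74940, 2 genes along from ORA47, fell after both inductions, with differences of -1.29 ± 0.10 for ANAC059 and -0.87 ± 0.14 for ANAC092 (limma adjusted p = 0.00283 and 0.0222), and in leaf 11 it was higher by 0.29 in the ANAC059 line and 0.47 in the ANAC092 line. The other 8 measured neighbours passed in neither induction and differed from wild type by less than 0.5 in both lines.

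Other genes of the same responses were taken from 4 lists. The lists were chosen with earlier results of these data known, so their counts are a description and not an independent check. Of 9 touch, calcium and calmodulin-like genes measured, 4 were higher by at least 1 in the ANAC059 line and 0 in the ANAC092 line. Over all probe sets these shares were 4.65% and 0.98%, so 0 of 9 is near the share of all. The calmodulin-like genes CML38 and CML37 were higher by 2.55 and 1.58 in the ANAC059 line and by 0.95 and 0.39 in the ANAC092 line. AT3G01830 and CML41 were higher by 1.48 and 1.03 in the ANAC059 line, and stood at 0.08 and -0.39 in the ANAC092 line. The list median was 0.59 in the ANAC059 line and 0.08 in the ANAC092 line.

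After ANAC059 induction 3 of these 9 genes rose and 1 fell, with a list median of 0.63. Over all probe sets 1.65% were called higher and 1.34% lower. AT3G01830 rose by 1.39 ± 0.09, AT5G39670 by 1.37 ± 0.12 and CML37 by 1.07 ± 0.11 (limma adjusted p = 0.00227, 0.00388 and 0.00716), each in all 4 fits that left out an array. CML38 fell by 1.27 ± 0.13 (limma adjusted p = 0.00644), opposite to its difference in leaf 11. After ANAC092 induction CML23 rose by 1.60 ± 0.19 and AT3G01830 by 1.58 ± 0.24 (limma adjusted p = 0.00619 and 0.0172), the first in 6 and the second in 3 of 6 fits that left out an array. The other 7 did not pass after ANAC092 induction, where the list median was 0.34. CML38 stood at -1.16 ± 0.31 there (limma adjusted p = 0.154). Without empty vector replicate 3 the list had 2 genes higher and 1 lower, against 493 and 294 of all 22746 probe sets.

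Of 10 rapid wound and elicitor response genes measured, 4 were higher by at least 1 in the ANAC059 line and 0 in the ANAC092 line, with medians of 0.46 and -0.08. The shares over all probe sets were again 4.65% and 0.98%, and 0 of 10 is near the second. WRKY53, a transcription factor gene of senescence and defence, was higher by 1.91 in the ANAC059 line and stood at -0.05 in the ANAC092 line. EXO, a cell wall protein gene of growth, was higher by 1.50 in the ANAC059 line and 0.24 in the ANAC092 line, and the other 2 were the neighbours AT4G27652 and AT4G27657. After ANAC059 induction 1.65% of all probe sets were called higher. Of the 10 genes 4 rose, which were AT4G27657, PUB23, a ubiquitin ligase gene (0.89 ± 0.13), AT4G27652 and WRKY53 (0.65 ± 0.12), with limma adjusted p between 0.0216 and 0.0447. That count was 0 without empty vector replicate 1, 1 without empty vector replicate 2, 2 without induced replicate 1 and 3 without induced replicate 2. WRKY53 kept its call in 1 of these 4 fits. Empty vector replicate 3, which the ANAC059 set does not hold, stood at 9.94 for WRKY53, against 8.73 and 9.33 in replicates 1 and 2 of the ANAC092 set. It was lower than those replicates for AT4G27652 (7.35, against 8.67 and 8.77) and AT4G27657 (6.17, against 7.23 and 7.19). For PUB23 it was 8.35, against 8.04 and 8.19. After ANAC092 induction 2.23% of all probe sets were called in limma, and 2734 of 22746 reached an unadjusted p under 0.05. Of the 10 genes 0 passed, which is near the share of all. Quantile normalization or a filter on dim probe sets gave 1 lower, and control by empty vector replicate 3 alone gave 2 higher and 1 lower.

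**Figure D4:**
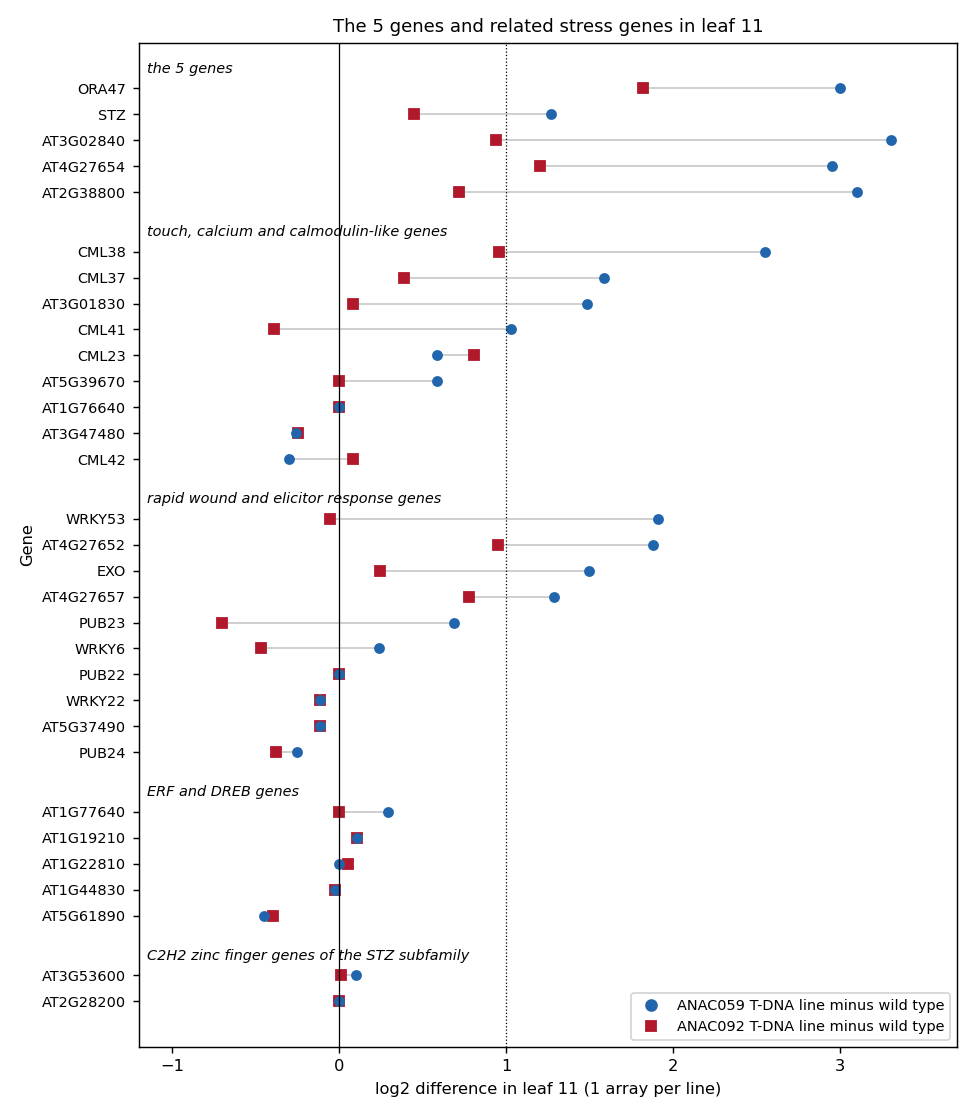
Log2 difference to wild type in leaf 11 (horizontal axis) for the ANAC059 T-DNA line (circles) and the ANAC092 T-DNA line (squares), with the 5 genes at the top and the other measured genes of 4 related lists below. Circles reach 1 or more for all 5 genes, for 4 of 9 touch and calcium genes and for 4 of 10 wound and elicitor genes, and for none of the 7 listed relatives of ORA47 and STZ. Of all probe sets 4.65% reach 1 in the ANAC059 line. The lists were chosen with earlier results of these data known.

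The listed relatives of ORA47 and STZ were mostly dim in leaf 11. Of the 7 measured, 5 lay below the array median in the ANAC059 line and 6 in the ANAC092 line, against 6 in wild type, and 5 had the same value on at least 2 leaf arrays, which limits what they can show. Of 5 other ERF and DREB genes, none differed by 1 in either line, and the differences ran from -0.45 to 0.29 in the ANAC059 line and from -0.39 to 0.10 in the ANAC092 line. Over all probe sets 4.65% and 0.98% were higher by at least 1 in these lines. AT1G77640 rose by 1.56 ± 0.12 after ANAC059 induction and by 0.95 ± 0.13 after ANAC092 induction (limma adjusted p = 0.00274 and 0.012). The second call was kept in 3 of 6 fits that left out an array. AT1G44830 rose by 0.88 ± 0.13 after ANAC059 induction (limma adjusted p = 0.0205, kept in 2 of 4 such fits). Of 2 other C2H2 zinc finger genes, AT3G53600 passed nowhere, and AT2G28200 rose by 1.01 ± 0.11 after ANAC092 induction (limma adjusted p = 0.00462, kept in all 6 fits).

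ORA47 is known for its action on jasmonate synthesis, but of 31 listed jasmonate genes only OPCL1, which encodes a CoA ligase of that synthesis, had a single-gene probe set. It was higher by 0.26 in the ANAC059 line and stood at -0.32 in the ANAC092 line. After induction it stood at -0.10 ± 0.10 with ANAC059 and -0.21 ± 0.13 with ANAC092, and passed in neither. Of 4 measured senescence markers, WRKY53 alone was higher by at least 1 in the ANAC059 line, SAG101 stood at 0.91, and SAG29, which rose by 4.55 ± 0.20 after ANAC092 induction (limma adjusted p = 4.76e-05), stood at -0.33 there and -0.31 in the ANAC092 line.

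Low-oxygen response genes were lower in induced seedlings, but some of their calls turned on the empty vector arrays. All 8 measured fell after ANAC059 induction (median -2.04), led by AT3G10040, AT1G33055, AT5G10040 and AT4G10270 (-2.87, -2.81, -2.48 and -2.15), and 6 did so without empty vector replicate 1 and 7 without replicate 2. Over all probe sets 1.34% were called lower. This list too was chosen with earlier results of these data known. AT4G10270 kept its call in 3 and AT1G26270 in 2 of the 4 fits that left out an array, and the others kept theirs in all 4. Empty vector replicate 3, which the ANAC059 set does not hold, was lower than replicates 1 and 2 for AT1G33055 (9.81, against 11.67 and 11.40), AT5G10040 (7.56, against 9.95 and 8.96) and AT4G10270 (9.94, against 12.21 and 12.005). AT3G10040 (-1.66), AT3G27220, AT1G26270 and AT5G26200 fell after ANAC092 induction, each also in all 6 fits that left out an array. These are 4 of the 8, against 0.831% of all probe sets called lower. That count was 8 without empty vector replicate 3, and against replicate 3 alone 3 were called lower and 1 higher. In leaf 11 of the ANAC059 line their median difference was 0, and AT1G26270 alone was higher by at least 1 (1.24). AT3G27220 and AT5G26200 had an identical value on all 3 leaf arrays, and AT3G10040 had it in the ANAC059 line and wild type. These ties limit what the median can show. AT3G10020, at 9.68 in wild type, was higher by 0.83 in the ANAC059 line and 0.81 in the ANAC092 line. AT4G10270 and AT5G10040 stood at -0.28 and -0.10 in the ANAC059 line. The photosynthesis gene RCA rose by 0.63 ± 0.10 after ANAC059 induction (limma adjusted p = 0.0251, kept in 1 of 4 fits that left out an array). In the ANAC092 set it stood at 12.73 in empty vector replicate 3, against 12.15 and 12.24 in replicates 1 and 2. On the leaf arrays RCA had the identical value of 13.58 each time.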

How the data were processed

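The authors deposited RMA log2 signals from Affymetrix arrays of biotin-labelled total RNA, normalized in 3 sets per the labels and the submitters' processing notes; software version and genome build are not given in the sources used here. Quantile normalization within RMA hides changes shared by most transcripts, and the number of arrays limits precision. Of 22810 probe sets, 64 controls were left out. The annotation table gave 1 gene for 13513, several for 503 and none for 8730 of the rest; loci came from the TAIR10.1 gene table, used for names and neighbours only. Each induction was fitted apart with limma 3.58.1 in R 4.3.3 (lmFit, eBayes, group only, two-sided), with Benjamini-Hochberg adjustment over 22746 probe sets and a threshold of 0.05. Leaf lines were compared by differences, counted from 1 on the log2 scale. The fit was tested on simulated data with 200 changed probe sets; for the ANAC092 induction 4% of changes of 0.5 and 64% of changes of 1 were recovered, and for the ANAC059 induction 8% and 94%, each over 22746 probe sets.

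The members and lists were chosen with earlier results of these data known. The 12 lists named 198 genes, 45 of them measured. Genes named are the 5 members, up to 4 passing members of each list per induction, up to 4 with a leaf difference of at least 1, and the 3 probe sets nearest each member; neighbours, chloroplast genes and non-passing genes were added after values were seen.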

Additional observations from a re-analysis of the deposited data

Results flagged for a closer look

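Of the 5 genes and the list genes named above, some had differences of opposite sign in the compared lines. Leaf differences of opposite sign were counted, even where 1 of them was near 0, as for WRKY53 in the ANAC092 line. Inductions were counted where all arrays of one set lay above their controls and all arrays of the other below. With ANAC059, 26.2% of all probe sets lay above and 26.8% below in this way, and with ANAC092 7.98% and 12.4%. Whether the lines differed from each other was not tested. AT2G28200 stood at -0.33 after ANAC059 induction (limma adjusted p = 0.182) and 1.01 after ANAC092 induction. PRK, a photosynthesis gene, stood at 0.074 and -0.65 and passed in neither (limma adjusted p = 0.664 and 0.0788). In leaf 11, with 1 array per line, CML41 stood at 1.03 in the ANAC059 line and -0.39 in the ANAC092 line, WRKY53 at 1.91 and -0.05, and PUB23 at 0.69 and -0.70, each relative to the same wild type array. On the same arrays SAG101 stood at 0.91 and -0.64, GI at 0.26 and -0.72, OPCL1 at 0.26 and -0.32, and AT4G10270 at -0.28 and 0.23. AT3G02840 and AT2G38800 had induction differences of opposite sign, but in each case the arrays of one induction overlapped with their controls.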

How the results depend on the processing

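After ANAC092 induction, 507 probe sets were called and 209 to 787 without single arrays, the lowest without empty vector replicate 2 and the highest without empty vector replicate 3. The count was 205 adjusted over single-gene probe sets and 242 with induced replicates 1 and 3 averaged. With 1 of the 5 genes called, the count ranged from 0 to 1 without single arrays, and was 0 with the replicate block, against empty vector replicate 3 alone, and with induced replicates 1 and 3 averaged; AT2G38800 changed by 0.57 with a limma adjusted p of 0.0693 with the replicate block and 0.134 with those replicates averaged. After ANAC059 induction, 679 probe sets were called, 161 to 444 without single arrays, 264 adjusted over single-gene probe sets, and 0 with the replicate block, where 4131 had an unadjusted p under 0.05. With quantile normalization 335 were higher and 362 lower, against 375 and 304. The median of the 5 genes in the ANAC059 induction was 0.43, with 0.27 to 0.56 without single arrays, the lowest without empty vector replicate 2 and the highest without empty vector replicate 1. Where fewer arrays or probe sets entered, the adjustment itself differs; the cause of other changes was not tested. The leaf medians kept their sign under quantile normalization, centring by level and an added 16, and moved by less than 1 SD of all probe set differences between the arrays. The list counts under these settings were chosen after seeing the data. Replicate numbers were not taken to pair the arrays: deviations of same-numbered arrays correlated at -0.11, 0.27 and 0.10 in the ANAC092 set and 0.03 in the ANAC059 set, and not every ANAC092 induced array correlated best with its own number.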
